A study of Mus musculus with 6 samples.

Results

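The solute carriers described here are the genes of one TPM table whose symbol is Slc followed by a family number and whose mean over all 6 libraries was at least 2 TPM (a level that divides out gene length and library size, with a near equal sum in each library). Of 194 symbols of that form, 9 were left out (Slc7a11, Slc40a1, Slc48a1, Slc7a2, Slc2a1, Slc16a1, Slc16a3 and the pseudogenes) and 16 lay under the minimum, which left 169 members among 13886 genes. The members were thus chosen by their mean TPM over both genotypes together, and the genotype difference was not used. The genes nearest the limit from above were Slc30a4 (2.10 TPM), Slc5a3 (2.25 TPM) and Slc22a17 (2.68 TPM), and those nearest from below were Slc25a47 (1.996 TPM), Slc27a3 (1.98 TPM) and Slc24a5 (1.79 TPM). Slc30a4, Slc26a10 and Slc22a23 had an Egr2fl/fl mean under 2 TPM and reached the minimum through the Lyz2cre/+.Egr2fl/fl libraries.

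The cells were liver macrophages of mice fed CDA-HFD, a fatty diet that lacks choline and holds amino acids in place of protein and that produces metabolic dysfunction-associated steatohepatitis (MASH). All animals carried floxed Egr2 alleles. Egr2fl/fl animals (3 libraries) had no Cre and kept Egr2, a zinc finger transcription factor, whereas Lyz2cre/+.Egr2fl/fl animals (3 libraries) carried 1 Lyz2cre allele, in which the lysozyme promoter drives Cre in monocytes, macrophages and neutrophils. Because the controls were without Cre, an effect of the Cre allele and one of Egr2 loss cannot be told apart. By the methods the cells came from male littermates and were gated as CD11b+ Ly6G- Ly6C-low F4/80+. Neither age nor weeks of diet stood in the sample labels, and the paper's methods give an age range for the diet model only.

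Solute carriers move small molecules across membranes, and the family number follows sequence relationship rather than substrate. In macrophages they supply amino acids, nucleosides and sugars for growth, carry iron, zinc and manganese into or out of the phagosome, return digestion products from the lysosome to the cytosol, and link the mitochondrial matrix to the cytosol. A few genes with such symbols are no transporters. The NHERF scaffold proteins Slc9a3r1 and Slc9a3r2 bind exchangers and receptors, and others are named after a transporter gene.

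Of the members described below, Slc9a3r2 rose by the largest amount, and Slc22a4 and Slc30a1 fell by the largest amounts among those past the test. The 250 bases before their RefSeq start sites (GRCm38.p6, written along the gene strand) are given to show what these upstream regions look like. Capitals mark the letters GCGNGGGCG, the core recognised by the Egr family, searched on both strands.
Slc9a3r2 (chr17:24650306-24650555, minus strand): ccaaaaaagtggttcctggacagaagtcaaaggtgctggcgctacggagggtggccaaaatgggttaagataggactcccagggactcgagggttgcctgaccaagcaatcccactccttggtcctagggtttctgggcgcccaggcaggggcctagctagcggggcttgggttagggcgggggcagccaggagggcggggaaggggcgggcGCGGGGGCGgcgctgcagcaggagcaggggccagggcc
Slc22a4 (chr11:54028105-54028354, minus strand): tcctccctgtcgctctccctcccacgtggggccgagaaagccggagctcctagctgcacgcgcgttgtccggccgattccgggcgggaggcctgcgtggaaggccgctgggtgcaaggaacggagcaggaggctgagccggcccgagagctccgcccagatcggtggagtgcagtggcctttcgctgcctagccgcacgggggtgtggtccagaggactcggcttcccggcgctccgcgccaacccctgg
Slc30a1 (chr1:191906531-191906780, plus strand): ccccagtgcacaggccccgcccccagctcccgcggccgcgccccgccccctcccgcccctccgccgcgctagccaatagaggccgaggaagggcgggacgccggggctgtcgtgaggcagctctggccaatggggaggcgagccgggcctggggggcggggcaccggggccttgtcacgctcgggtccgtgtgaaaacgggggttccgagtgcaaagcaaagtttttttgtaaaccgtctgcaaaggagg

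Among these 3 stretches, the letters stand once, in Slc9a3r2, beginning 38 bases before the start used here as GCGGGGGCG. Another RefSeq start window of Slc9a3r2 (chr17:24644908-24645207) did not hold them. RefSeq windows of 250 bases before to 50 bases after a start were at hand for 130 of the 169 members, and 24 of these members held the letters in at least 1 window. By window the share was 16.2% (28 of 173), and over all 32851 windows of this length in the table it was 5.55%. The latter were not limited to expressed genes or matched to the members by level, so the shares are not a like comparison. Of the 14 members past the genotype test, 12 had a window (all but Slc43a3 and Slc15a3), and 1, Slc9a3r2, held the letters. A match of letters is a description of the sequence and not a measured binding site.

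Egr2 itself was 123, 120.2 and 126 TPM in Egr2fl/fl replicates 1 to 3 and 9.08, 9.64 and 10.5 TPM in Lyz2cre/+.Egr2fl/fl replicates 1 to 3, which matches the labels. Itgax, which encodes CD11c, was lower in each Lyz2cre/+.Egr2fl/fl library, with a log2 difference of -1.38 ± 0.07 SE. The totals of reads recovered from the TPM steps were 6497770 to 8569062 per library, lower bounds of depth. Summed over 12 macrophage genes the level was 27726 to 31057 TPM in Egr2fl/fl and 27703 to 28155 TPM in Lyz2cre/+.Egr2fl/fl libraries, and 4 of the 12 rose and 1 fell. The 12 include Lyz2, the gene of the Cre allele, and its part in the sum was not tested. Endothelial and Kupffer cell markers moved as well. Of 25 endothelial genes 24 had values and 23 rose, with sums of 200.4 to 229 TPM against 851 to 956 TPM, a 4.27-fold ratio of means. Of 8 Kupffer cell genes 7 rose, with sums of 1472 to 1975 TPM against 4298 to 5582 TPM (2.76-fold). In the paper's single-cell data, resident Kupffer cells were rare in MASH in either genotype. There, a cluster of monocyte-derived macrophages expressed Kupffer cell markers such as Clec4f. With 1 mouse per group, the paper describes that cluster as slightly larger in Lyz2cre/+.Egr2fl/fl and a lipid-associated macrophage cluster as reduced. Its flow cytometry for the surface proteins CD11c and Mincle found a smaller share of macrophages high in both in that genotype. The share low in both was larger. The part of this shift in subsets in the values below was not tested. Hepatocyte genes summed to 1143 to 1889 TPM and 1256 to 1471 TPM, with the highest value in Egr2fl/fl replicate 3, and 1 of 24 rose and 1 fell. Sums of the stellate cell, cholangiocyte, neutrophil, T and NK cell and erythroid lists reached at most 29.7 TPM in any library, with no value for Ly6g, Cd3e, Epcam or Alas2, and the B cell list, without a value for Ms4a1 or Pax5, summed to 77.8 to 129 TPM. Of 4 T and NK cell genes with values 1 fell, and their sum was 6.78 to 10.4 TPM against 4.33 to 5.32 TPM without overlap, while 2 of 4 neutrophil genes fell and 1 of 4 B cell genes rose.

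The first question was how much of the solute carrier repertoire the macrophages used. Summed over all members, the level was 10416 to 11079 TPM in the Egr2fl/fl libraries and 10807 to 10888 TPM in the Lyz2cre/+.Egr2fl/fl libraries, so the groups overlapped. The median member had a mean of 26.9 TPM, and the median of all tested genes above the same minimum was 22.3 TPM. Levels were uneven: 22 members had a mean of at least 100 TPM and 35 a mean under 10 TPM. The 10 highest were Slc11a1 (1084 TPM), Slc25a5 (856 TPM), Slc15a3 (713 TPM), Slc3a2 (544 TPM), Slc25a3 (444 TPM), Slc7a8 (376 TPM), Slc6a6 (299 TPM), Slc43a2 (234 TPM), Slc8b1 (211 TPM) and Slc39a1 (207 TPM). They cover phagosomal divalent metals, mitochondrial nucleotides and phosphate, lysosomal peptides, neutral amino acids, taurine, mitochondrial calcium and zinc. Of the 10, Slc15a3 fell and Slc7a8 rose, and the other 8 did not pass the test.

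Between genotypes, 10 members rose and 4 fell at an adjusted p below 0.05 (limma on log2(TPM + 1), Benjamini-Hochberg adjustment over 13777 genes). Those are 5.92% and 2.37% of members, and over all tested genes 4.38% were called higher and 1.87% lower, so the share of members was near the background in both directions. Without the 3 members that met the minimum through 1 genotype, 9 of 166 (5.42%) rose, and Slc22a23 is the riser left out. The median log2 difference, given throughout as Lyz2cre/+.Egr2fl/fl minus Egr2fl/fl, was 0.06 for members and 0.04 for all tested genes. Without any overlap between genotypes, 39 members were higher (23.1%, background 17.0%) and 15 lower (8.88%, background 8.27%). For 116 members (68.6%) the 95% interval lay within 0.5 log2 units of no difference, and the same held for 57.4% of all tested genes with a mean of 2 TPM or more. In bulk RNA, fewer cells of a type and less RNA per cell cannot be told apart.

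**Figure D1:**
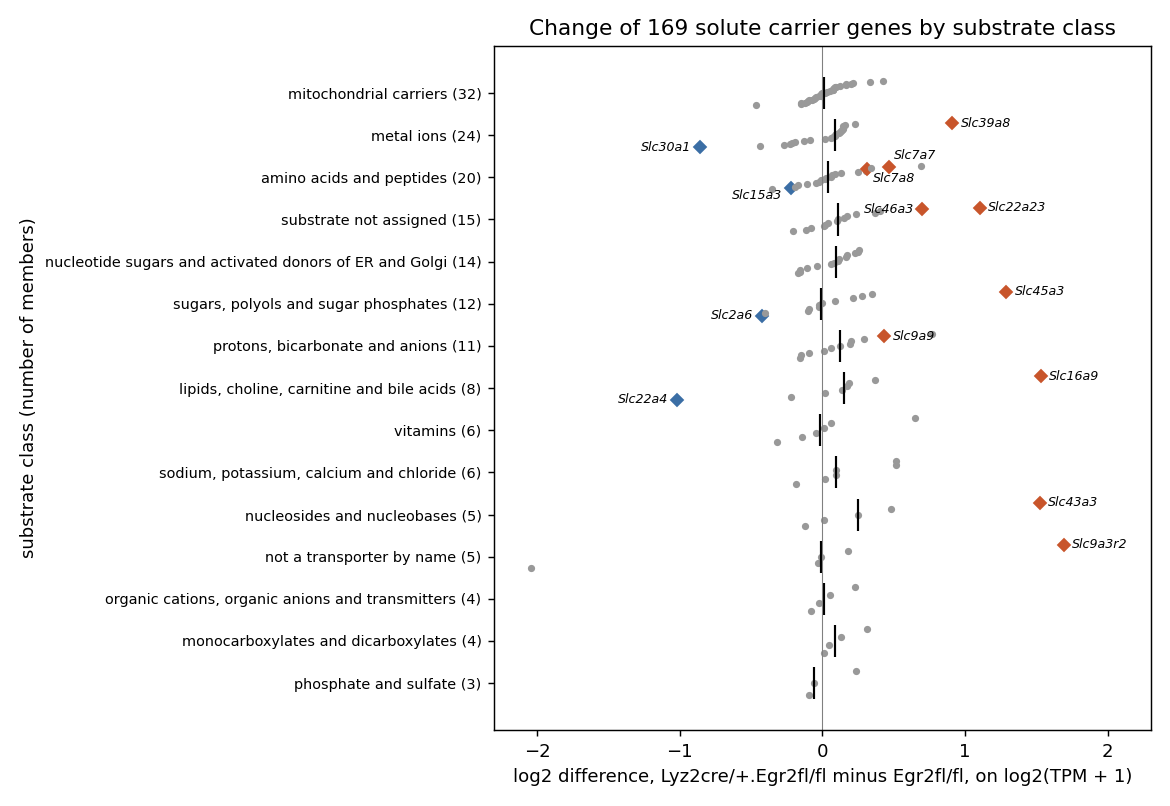
Log2 difference between genotypes on the log2(TPM + 1) scale (x axis) for each of the 169 members, by substrate class (y axis, number of members in parentheses); diamonds with names are the 10 members past the test in the upward and the 4 in the downward direction, grey points did not pass, and black bars are class medians. The named genes are spread over 8 of the 15 classes and the class medians lie between -0.06 and 0.25.

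**Figure D2:**
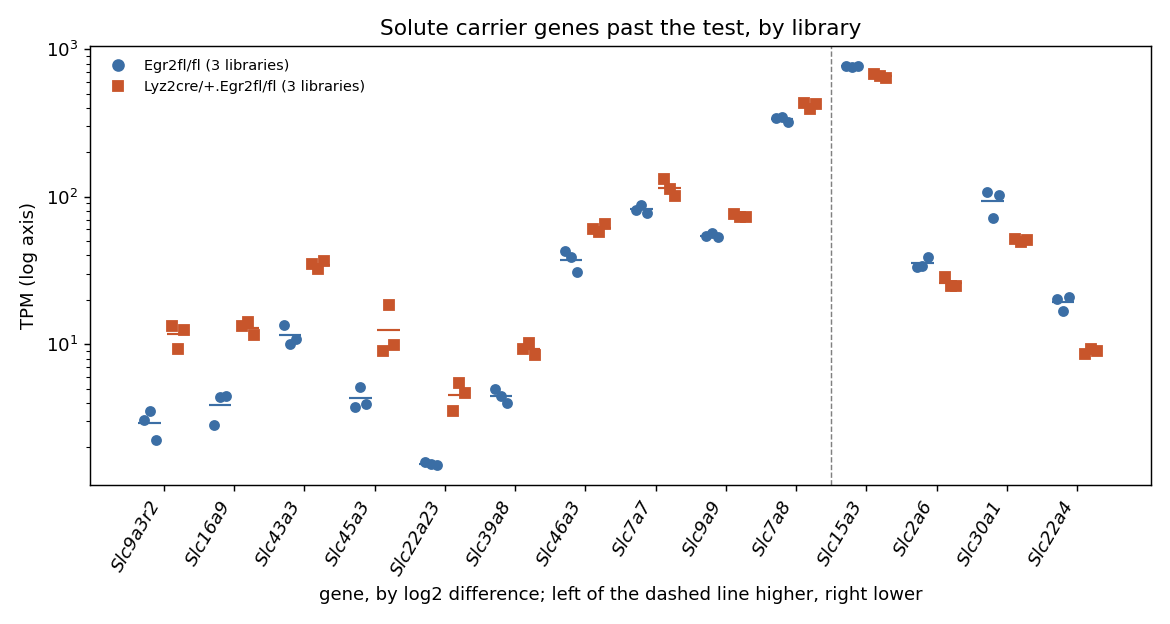
TPM on a log axis (y axis) of the 14 members past the test (x axis, ordered by log2 difference) in each of the 3 Egr2fl/fl libraries (circles) and the 3 Lyz2cre/+.Egr2fl/fl libraries (squares), with group means as bars. For each of the 14 the genotypes do not overlap, and the levels run from about 1.52 TPM (Slc22a23) to 771 TPM (Slc15a3).

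The amino acid and peptide carriers, 20 members, held the first of these changes: Slc7a7 and Slc7a8 rose, Slc15a3 fell, and 17 did not pass the test. Both risers are light chains that pair with the heavy chain Slc3a2 (4F2hc, CD98) at the cell surface. Slc7a8 (LAT2, small and large neutral amino acids) had 340.4, 345 and 319 TPM in controls, whereas Lyz2cre/+.Egr2fl/fl libraries had 434, 392 and 425 TPM. The lowest Lyz2cre/+.Egr2fl/fl library thus stood above the highest Egr2fl/fl library, and the ratio of means was 1.25 (log2 difference 0.31 ± 0.06 SE, adjusted p = 0.0235). Slc7a7 (y+LAT1, which exchanges cationic for neutral amino acids) was 81.2, 88.4 and 77.1 TPM against 131, 112 and 101 TPM. All 3 Lyz2cre/+.Egr2fl/fl libraries were above all 3 controls, by 1.40-fold in the means (log2 difference 0.47 ± 0.10 SE, adjusted p = 0.0438).

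The heavy chain and the other light chains of that group did not pass. Slc3a2 was 548, 561 and 526 TPM against 519.9, 588 and 521 TPM, with groups that overlapped and a 95% interval of -0.15 to 0.14 for the log2 difference. Slc7a5 (LAT1), at 20.3 to 25.4 TPM and 18.6 to 20.2 TPM, had an interval of -0.42 to 0.08, and Slc7a6 (y+LAT2), at 17.7 to 20.7 TPM and 15.2 to 20.2 TPM, one of -0.41 to 0.19. In TPM, which is per length, Slc7a8 was the most abundant of the 4 light chains in each library, followed by Slc7a7. Both rising genes lie on chromosome 14 of GRCm38, Slc7a7 at chr14:54369442-54417780 and Slc7a8 at chr14:54722209-54781946. Exons of Slc7a7 share 232 bases with Oxa1l on the opposite strand, which was 61.6 to 70.9 TPM and 67.4 to 79.2 TPM and did not pass. Whether counting used the strand was not given in the sources used here.

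Slc15a3 (PHT2), which carries histidine and peptides out of the lysosome, fell from one narrow range to another. It was 769, 761 and 771 TPM in Egr2fl/fl libraries and 682, 658 and 637 TPM in Lyz2cre/+.Egr2fl/fl libraries. No library overlapped, and the ratio of Egr2fl/fl to Lyz2cre/+.Egr2fl/fl means was 1.16 (log2 difference -0.22 ± 0.04 SE, adjusted p = 0.0294). Its paralogue Slc15a4 (PHT1), also lysosomal, was 69.7, 75.7 and 69.9 TPM against 85.8, 89.8 and 80.7 TPM, which do not overlap in the other direction (log2 difference 0.25 ± 0.07 SE), but the adjusted p of 0.0862 missed the threshold. Slc15a3 (chr19:10839727-10859362) shares 1541 exon bases with Tmem132a on the opposite strand, and Tmem132a was 187, 158 and 171 TPM against 149, 145 and 151 TPM (adjusted p = 0.151). Without strand, reads of the pair on these shared bases cannot be told apart.

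The glutamine carriers Slc1a5 and Slc38a2 gave no call: Slc1a5 was 80.4 to 91.4 TPM against 71.3 to 81.2 TPM (interval -0.37 to -0.01, adjusted p = 0.231), and Slc38a2 was 94.8 to 101 TPM against 83.1 to 115 TPM (interval -0.29 to 0.25). Slc43a2 (LAT4) overlapped at 214 to 263 TPM and 218 to 259 TPM. The sum over the class was 2580.4 to 2727 TPM in Egr2fl/fl and 2661 to 2714 TPM in Lyz2cre/+.Egr2fl/fl libraries. One library of Slc15a2, a peptide carrier of the plasma membrane chosen here after its values were seen, stood apart: Egr2fl/fl replicate 2 had 0.0915 TPM, and the other 5 libraries had 4.58 to 8.77 TPM. With that library its log2 difference was 0.69 and without it -0.33, and neither passed.

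**Figure D3:**
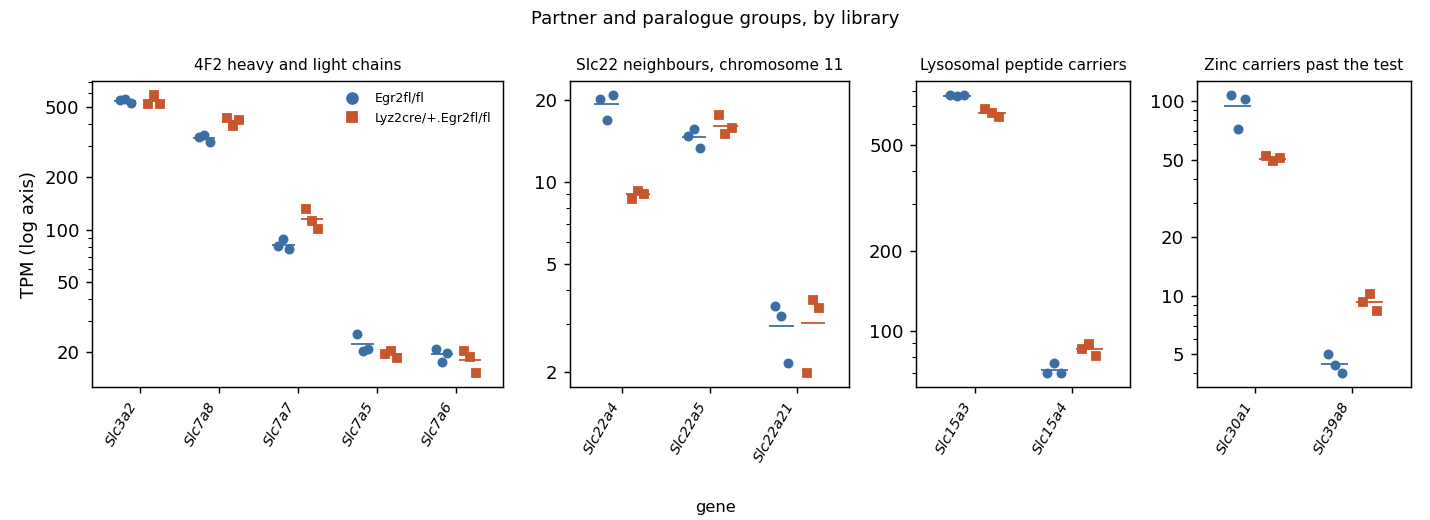
TPM on log axes of their own (y axis) for 4 groups of related genes (x axis) in each Egr2fl/fl library (circles) and Lyz2cre/+.Egr2fl/fl library (squares), with group means as bars. Slc7a8, Slc7a7 and Slc39a8 are higher and Slc22a4, Slc15a3 and Slc30a1 lower in all 3 Lyz2cre/+.Egr2fl/fl libraries, while Slc3a2, Slc22a5 and Slc22a21 overlap.

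The metal ion carriers numbered 24, of which Slc39a8 rose, Slc30a1 fell and 22 did not pass. Slc30a1 (ZnT1), the zinc exporter of the plasma membrane, was 108, 72.01 and 103 TPM in Egr2fl/fl libraries and 52.1, 49.1 and 51.1 TPM in Lyz2cre/+.Egr2fl/fl libraries. Egr2fl/fl replicate 2 was the lowest control and still above every Lyz2cre/+.Egr2fl/fl library, and the control mean was 1.85-fold higher (log2 difference -0.86 ± 0.15 SE, adjusted p = 0.0174). Slc39a8 (ZIP8), which takes zinc and manganese into the cytosol, was 4.997, 4.42 and 4.002 TPM against 9.24, 10.2 and 8.39 TPM. All Lyz2cre/+.Egr2fl/fl values lay above all control values, at a ratio of means of 2.07 (log2 difference 0.91 ± 0.14 SE, adjusted p = 0.0124). Slc30a1 is at chr1:191906767-191913247, where 468 exon bases overlap 1700034H15Rik on the opposite strand, and Slc39a8 is at chr3:135825279-135888572 with no exon overlap.

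Other zinc carriers did not pass the test. Slc39a1 (ZIP1), the second most abundant of the class, was 199 to 213 TPM and 204 to 212 TPM, with an interval of -0.10 to 0.13. Slc39a14 (ZIP14), the closest relative of Slc39a8, was 14.7, 11.99 and 13.8 TPM against 10.5, 10.001 and 8.53 TPM without overlap, and its adjusted p of 0.106 missed the threshold. Iron and manganese export from the phagosome runs through Slc11a1 (NRAMP1), the highest member of all, with 1146, 1108 and 1091 TPM against 1073, 1072 and 1011 TPM. Those groups did not overlap but the log2 difference was -0.08 (interval -0.19 to 0.02, adjusted p = 0.366). Slc11a2 (DMT1), its endosomal counterpart, was 27.9 to 30.9 TPM and 24.03 to 28.2 TPM with an interval of -0.41 to 0.02.

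Carriers of lipids, choline, carnitine and bile acids numbered 8, and here Slc16a9 rose and Slc22a4 fell. Slc22a4 (OCTN1), a carrier of ergothioneine and organic cations that takes carnitine weakly, was 20.2, 16.9 and 20.8 TPM against 8.63, 9.27 and 9.05 TPM. The lowest Egr2fl/fl library was above the highest Lyz2cre/+.Egr2fl/fl library, with a 2.15-fold higher control mean (log2 difference -1.02 ± 0.11 SE, adjusted p = 0.00347). Its neighbours on chromosome 11 are paralogues: Slc22a4 lies at chr11:53983123-54028090, Slc22a21 at chr11:53949965-53980332 and Slc22a5 at chr11:53864542-53891660, all on the minus strand.

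Neither neighbour passed. Slc22a5 (OCTN2), the main carnitine importer, was 14.7, 15.6 and 13.3 TPM against 17.6, 14.9 and 15.7 TPM, with overlap and an interval of -0.12 to 0.39. Slc22a21, the third gene of the cluster in the mouse, was 3.49, 3.21 and 2.16 TPM against 1.99, 3.68 and 3.45 TPM, and its log2 difference of 0.02 turned to -0.019 with median-of-ratios scaling. The intervals of Slc22a4 (-1.28 to -0.76) and Slc22a5 do not meet, while the difference between the genes was not tested, and reads that fit more than 1 paralogue make the split uncertain.

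Slc16a9 (MCT9), known in humans as a carnitine and creatine carrier, was 2.82, 4.38 and 4.43 TPM in controls and 13.3, 14.1 and 11.5 TPM in Lyz2cre/+.Egr2fl/fl libraries. The groups were far apart relative to their spread, with a ratio of means of 3.34 (log2 difference 1.53 ± 0.18 SE, adjusted p = 0.00419). Its exons (chr10:70245100-70285968) share bases with the gene models Gm7097 and Gm9877 on the opposite strand. The 2 most abundant members of the class did not pass: Slc44a2, a choline carrier, was 105, 83.7 and 88.3 TPM against 123, 114 and 119 TPM (adjusted p = 0.0663), and Slc27a1, a fatty acid transport protein, overlapped at 77.8 to 113 TPM and 99.2 to 129 TPM.

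Among 5 nucleoside and nucleobase carriers, Slc43a3 rose and 4 did not pass. Slc43a3, which despite its amino acid family number takes up purine nucleobases, was 13.6, 10.1 and 10.8 TPM in Egr2fl/fl libraries and 34.997, 32.5 and 36.5 TPM in Lyz2cre/+.Egr2fl/fl libraries. Each of the latter was more than any control, at a ratio of means of 3.02, and it had the smallest adjusted p of the members (log2 difference 1.52 ± 0.12 SE, adjusted p = 0.000973, chr2:84936579-84958509). Slc29a1 (ENT1), the equilibrative nucleoside carrier of the plasma membrane, was 98.4, 110.3 and 90.4 TPM against 151, 151 and 119 TPM. Those values did not overlap (log2 difference 0.48 ± 0.12 SE), but the adjusted p was 0.0589. Slc29a3 (ENT3), the lysosomal member whose loss in humans causes a histiocytosis, was 101 to 121 TPM and 93.6 to 107 TPM and overlapped.

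Sugar, polyol and sugar phosphate carriers numbered 12. Slc45a3 (prostein), a sugar carrier best known from prostate, was 3.78, 5.13 and 3.96 TPM in controls and 8.96, 18.6 and 9.85 TPM in Lyz2cre/+.Egr2fl/fl libraries. The genotypes did not overlap, and Lyz2cre/+.Egr2fl/fl replicate 2 was the highest by far, with a ratio of means of 2.90 (log2 difference 1.29 ± 0.27 SE, adjusted p = 0.0369). Without that library its log2 difference was 0.98 and past the test (adjusted p = 0.0395). It is at chr1:131962967-131982969 and shares 481 exon bases with the gene model Gm29103 on the same strand, so its reads are uncertain.

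Slc2a6 (GLUT6), a hexose carrier of the lysosomal membrane in macrophages, was 33.2, 33.7 and 39.04 TPM against 28.4, 24.9 and 24.8 TPM. The groups did not overlap and the control mean was 1.36-fold higher (log2 difference -0.43 ± 0.10 SE, adjusted p = 0.049), the call closest to the threshold. The highest members of the class, Slc37a2, a sugar phosphate exchanger of the endoplasmic reticulum abundant in macrophages, and Slc50a1 (SWEET1), overlapped between genotypes. Slc37a2 was 167 to 206 TPM and 175 to 221 TPM, and Slc50a1 was 67.7 to 74.2 TPM and 58.99 to 73.8 TPM.

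Proton, bicarbonate and anion carriers numbered 11, and 1, Slc9a9, passed. Slc9a9 (NHE9), a sodium/proton exchanger of recycling endosomes, was 54.4, 56.3 and 52.9 TPM in Egr2fl/fl libraries and 76.6, 72.5 and 72.9 TPM in Lyz2cre/+.Egr2fl/fl libraries. Both groups were narrow and apart, at a ratio of means of 1.36 (log2 difference 0.43 ± 0.06 SE, adjusted p = 0.00735, chr9:94669909-95230445). Slc26a11, the next in level, was 39.4 to 48.5 TPM and 47.4 to 55.2 TPM with overlap, and Slc26a10, at 1.35 to 2.26 TPM and 1.91 to 6.01 TPM, overlapped too (adjusted p = 0.28).

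Genes that carry a solute carrier symbol but are not transporters by name numbered 5. Slc9a3r2 (NHERF2), a PDZ scaffold, was 3.06, 3.50 and 2.26 TPM against 13.4, 9.34 and 12.5 TPM. The lowest Lyz2cre/+.Egr2fl/fl library stood well above the highest control, at a ratio of means of 3.99, the largest of the 14 (log2 difference 1.69 ± 0.19 SE, adjusted p = 0.00401, chr17:24639286-24650327). Its paralogue Slc9a3r1 (NHERF1) was far more abundant, with 165 to 187 TPM and 189 to 220.2 TPM, and did not pass (log2 difference 0.18 ± 0.08 SE, adjusted p = 0.257). Slc7a6os overlapped at 60.5 to 66.5 TPM and 57.2 to 65.2 TPM. Slc36a3os, chosen here after its values were seen, had the largest log2 difference of any member in size (-2.04) with 11.3, 5.89 and 12.4 TPM against 3.48, 0 and 2.63 TPM, but rested on 56 recovered reads over all libraries and had an adjusted p of 0.0993.

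Carriers without an assigned substrate numbered 15, of which Slc46a3 and Slc22a23 rose. Slc46a3, a lysosomal membrane protein, was 42.5, 38.8 and 30.9 TPM against 60.2, 57.8 and 64.98 TPM. No library overlapped, with a ratio of means of 1.63 (log2 difference 0.70 ± 0.12 SE, adjusted p = 0.0179, chr5:147878437-147894815). Slc22a23, an orphan of the organic ion family, was 1.60, 1.53 and 1.52 TPM against 3.53, 5.45 and 4.64 TPM. Its control mean was under the 2 TPM minimum, which it met through the Lyz2cre/+.Egr2fl/fl libraries, so a difference was built into its membership. Its levels were low throughout (324 recovered reads in all), the groups did not overlap, and the ratio of means was 2.93 (log2 difference 1.10 ± 0.20 SE, adjusted p = 0.024, chr13:34179158-34345182). Slc35f6, the highest of the class, overlapped at 96.6 to 117 TPM and 91.8 to 106 TPM.

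The 7 remaining classes, 69 members, gave no call. Mitochondrial carriers were the largest, with 32 members, a median log2 difference of 0.01 and intervals within 0.5 log2 units of no difference for 26 of them. Slc25a5 (ANT2), the main adenine nucleotide exchanger here, was 876, 875 and 922 TPM against 849, 830.2 and 784 TPM (log2 difference -0.12, adjusted p = 0.239), and its partner isoform Slc25a4 (ANT1) was 112 to 116 TPM and 115 to 128 TPM (log2 difference 0.09). Slc25a3, the phosphate carrier, was 445 to 483 TPM and 419 to 436 TPM, which did not overlap and did not pass (adjusted p = 0.313). Summed, the mitochondrial class was 2605 to 2698 TPM in Egr2fl/fl and 2574 to 2638 TPM in Lyz2cre/+.Egr2fl/fl libraries.

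The 14 carriers of nucleotide sugars and activated donors in the endoplasmic reticulum and Golgi, many of which feed glycosylation, had log2 differences of -0.17 to 0.26. Of their leaders, Slc35c2 was 104 to 116 TPM and 121 to 141 TPM without overlap (adjusted p = 0.156), and Slc35b1 was 88.997 to 105 TPM and 78.9 to 94.02 TPM with overlap. Of the 6 carriers of sodium, potassium, calcium and chloride, Slc8b1, the mitochondrial sodium/calcium exchanger, was 197 to 218 TPM and 199 to 230.5 TPM with overlap, while Slc12a7, a potassium/chloride cotransporter, was 31.9 to 45.2 TPM and 49.3 to 68.02 TPM without overlap (adjusted p = 0.134). Of the 6 vitamin carriers, Slc23a2 (vitamin C) was 41.7 to 46.9 TPM and 38.1 to 42.4 TPM with overlap, and Slc46a1 (folate) was 5.61 to 7.90 TPM and 10.2 to 12.6 TPM without overlap and with an adjusted p of 0.06. The taurine carrier Slc6a6 (291 to 335 TPM and 276 to 319 TPM) and the creatine carrier Slc6a8 (29.4 to 35.01 TPM and 26.7 to 36.2 TPM) led 4 organic ion and transmitter carriers, and both overlapped. Of the monocarboxylate and dicarboxylate carriers that were kept, 4 in number, Slc16a6 (38.96 to 50.8 TPM and 40.4 to 51.2 TPM) overlapped and Slc16a7 (10.3 to 12.5 TPM and 13.3 to 15.96 TPM) did not. Of the 3 phosphate and sulfate carriers, Slc20a1 (40.5 to 47.9 TPM and 36.1 to 44.4 TPM) and Slc26a2 (18.6 to 26.2 TPM and 17.5 to 23.6 TPM) overlapped.

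**Figure D4:**
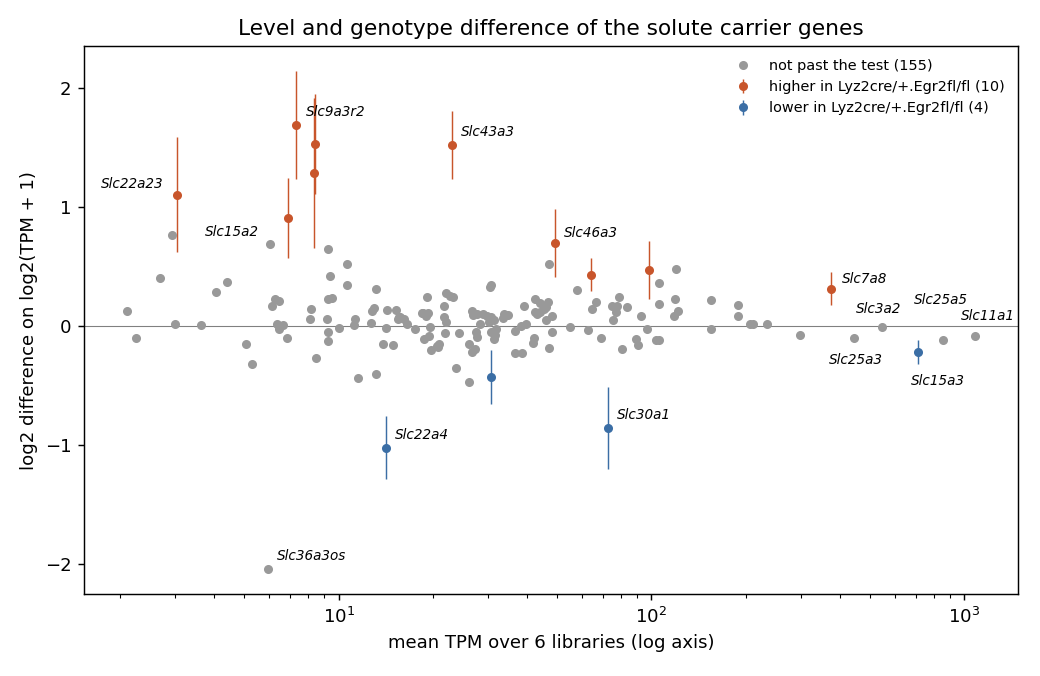
Mean TPM over 6 libraries (x axis, log scale) against the log2 difference between genotypes (y axis) for the 169 members; coloured points with 95% intervals passed the test, grey points did not. The 3 members above a ratio of 3, among them Slc43a3 at 23.1 TPM, have means under 25 TPM, and of the 10 highest members only Slc7a8 (0.31) and Slc15a3 (-0.22) passed.

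The solute carrier series also holds genes with other symbols, and of 84 such genes on a list 51 had values. Of these, 2 rose (3.92%, background 4.38%) and 4 fell (7.84%, background 1.87%), with a median log2 difference of 0.09. Slco2a1, the prostaglandin importer, was 0.869, 0.645 and 0.286 TPM in controls and 3.35, 2.84 and 2.78 TPM in Lyz2cre/+.Egr2fl/fl libraries (log2 difference 1.33 ± 0.25 SE, adjusted p = 0.0255). Its control mean of 0.600 TPM lay under the minimum of 1 TPM for testing, which it met through the Lyz2cre/+.Egr2fl/fl libraries. A difference was thus built into its passing that minimum. Without Slco2a1, 1 of 50 genes rose (2.0%) and 4 fell (8.0%). Slco2b1, an organic anion carrier, was 15.5, 11.8 and 7.67 TPM against 25.3, 22.9 and 32.7 TPM (log2 difference 1.17 ± 0.24 SE, adjusted p = 0.0363). Neither gene overlapped between genotypes, and each passed in 1 of the 6 fits that left out a library. The falling genes were Tmem165, a Golgi manganese and proton exchanger (113 to 149.7 TPM and 70.3 to 75.95 TPM, log2 difference -0.83), Emb, a chaperone of monocarboxylate carriers (82.6 to 101 TPM and 47.02 to 54.3 TPM, log2 difference -0.81), Mfsd12, which brings cysteine into lysosomes (118 to 132 TPM and 70.02 to 82.3 TPM, log2 difference -0.72), and Pqlc3 (72.7 to 83.8 TPM and 55.6 to 60.2 TPM, log2 difference -0.47). For each of the 4, all Lyz2cre/+.Egr2fl/fl libraries were below all controls. The most abundant genes of the list did not pass: Unc93b1, which escorts nucleic acid sensing Toll-like receptors, at 1328 to 1485 TPM and 1474 to 1591 TPM, Ucp2 at 1196 to 1248 TPM and 1088 to 1182 TPM, and Bsg, the partner of lactate carriers, at 326 to 351 TPM and 358 to 385 TPM.

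The risers and the marker sums can be set side by side. Relative to the Egr2fl/fl mean, Slc9a3r2 (3.99-fold), Slc16a9 (3.34-fold), Slc43a3 (3.02-fold), Slc22a23 (2.93-fold), Slc45a3 (2.90-fold) and Slc39a8 (2.07-fold) were higher. The endothelial sum (4.27-fold) stood above all of them and the Kupffer cell sum (2.76-fold) within their range. The hepatocyte and macrophage sums had ratios of 0.947 and 0.953. A difference was built into the membership of Slc22a23, which met the 2 TPM minimum through the Lyz2cre/+.Egr2fl/fl libraries. The other risers, Slc46a3, Slc7a7, Slc9a9 and Slc7a8, had lower ratios than the endothelial and Kupffer cell sums. The part of endothelial or Kupffer cell RNA in these rises was not tested. Of 18 transporters typical of hepatocytes 6 had values and none passed, with sums of 53.7 to 56.8 TPM and 50.4 to 65.2 TPM, and Slc10a1 and Slc2a2 were among those without a value. Of 4 transporters typical of erythroid cells 3 had values and none passed.

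**Figure D5:**
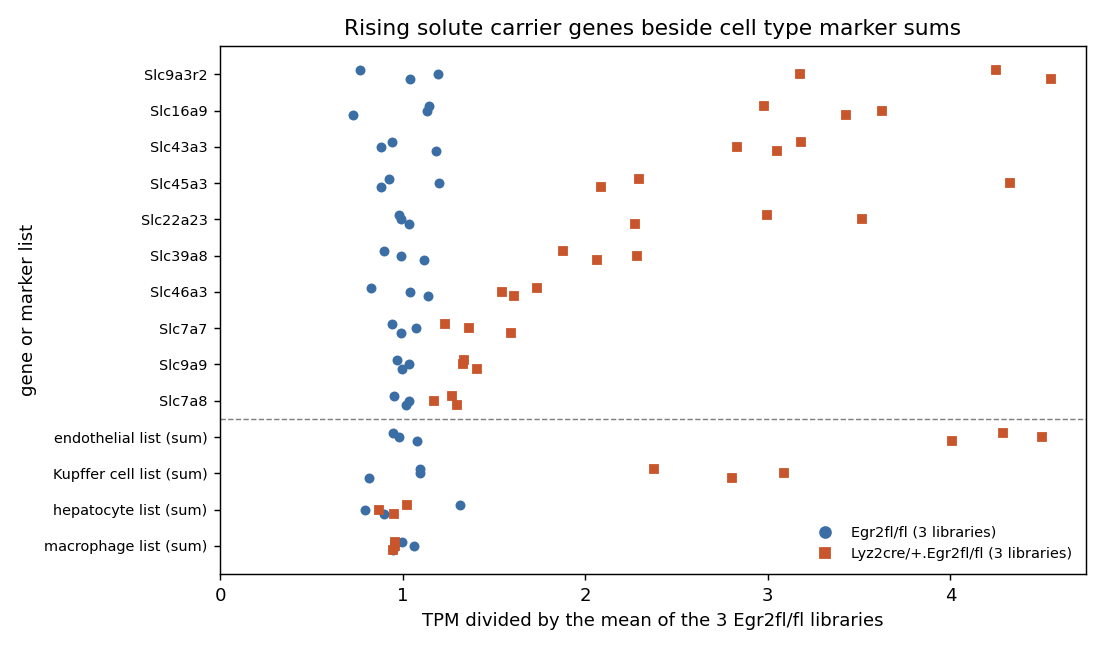
TPM of the 10 rising members and summed TPM of 4 marker lists (y axis), each divided by the mean of the 3 Egr2fl/fl libraries (x axis), for Egr2fl/fl libraries (circles) and Lyz2cre/+.Egr2fl/fl libraries (squares). On average in Lyz2cre/+.Egr2fl/fl libraries the endothelial sum sits at 4.27, above the upper 6 genes (2.07 to 3.99). The Kupffer cell sum sits at 2.76, within their range, and the hepatocyte and macrophage sums near 1. Slc22a23 met the 2 TPM minimum through the Lyz2cre/+.Egr2fl/fl libraries.

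With 3 libraries a group, the calls were fitted again without each library in turn. Of the 10 risers 6, 6 and 6 passed without Egr2fl/fl replicate 1, 2 or 3, and 5, 8 and 6 without Lyz2cre/+.Egr2fl/fl replicate 1, 2 or 3. Of the 4 that fell, 2 passed without Egr2fl/fl replicate 2 and 1 in each of the other 5 fits. Slc44a2 passed in addition without Egr2fl/fl replicate 1, and Slc29a1 without Lyz2cre/+.Egr2fl/fl replicate 3. Slc9a3r2, Slc16a9, Slc43a3, Slc9a9 and Slc22a4 passed in all 6 of these fits. Slc39a8 passed in 5 (adjusted p = 0.0604 without Lyz2cre/+.Egr2fl/fl replicate 1) and Slc46a3 in 4 (adjusted p = 0.0688 and 0.0703 without Lyz2cre/+.Egr2fl/fl replicates 1 and 3). Slc30a1 passed in 1, that without Egr2fl/fl replicate 2, the low control (adjusted p = 0.00239, log2 difference -1.04), and its adjusted p ran up to 0.0635 in the others. Slc7a7, Slc7a8, Slc45a3 and Slc22a23 each passed in 1 of the 6 fits, with adjusted p up to 0.132, 0.0974, 0.113 and 0.0899: Slc7a7 without Lyz2cre/+.Egr2fl/fl replicate 3, Slc7a8 and Slc45a3 without replicate 2 and Slc22a23 without replicate 1 of that genotype. Slc2a6 (adjusted p from 0.0759 to 0.156) and Slc15a3 (from 0.0663 to 0.0997) passed in none, with log2 differences of -0.49 to -0.35 and of -0.24 to -0.19, while the sign of all 14 differences held in each of the 6. Median-of-ratios and quantile scaling ended the calls of Slc45a3 and Slc7a7.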

How the data were processed

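RNA of sorted liver macrophages was sequenced (extraction with RNeasy Micro and a directional kit, per the labels). In the paper's methods this kit belongs to another cell population, and sorted cells in general went through SMART-Seq HT and Nextera XT, which do not mark strand, so whether these reads carry strand is not settled. The authors used Trimmomatic 0.39.0, HISAT2 2.2.1 against GRCm38 (mm10), duplicate removal and featureCounts 2.0.1, and deposited TPM values, 1 column per library, all used here. TPM sums are fixed, so rises of some genes lower others, and removing duplicates can lower abundant genes.

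With a mean minimum of 1 TPM, 13777 genes entered limma 3.58.1 (R 4.3.3; lmFit, eBayes with trend) on log2(TPM + 1), 3 libraries per genotype, no covariates, 2-sided, adjusted by Benjamini-Hochberg over all of them at a threshold of 0.05. Values after ± are standard errors of log2 differences, and on this scale changes of low genes are understated. Intervals (95%) come from the same fit, and folds are ratios of mean TPM. Groups follow the genotype in the titles, values are in the order of replicates 1 to 3, and of 2 values or ranges the Egr2fl/fl one is first. Whole reads were recovered from the TPM steps (tolerance 0.001 of a read) for all 13886 genes (100% whole). Voom on these reads, an alternative, called 776 genes higher and 382 lower.

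The members and gene lists were chosen with earlier results of these data known. Named genes were the members past the test, the 2 most abundant of each class and the 10 of all, those next to the 2 TPM limit, partner groups and, of the 84 genes with other symbols, those past the test and the 3 most abundant. Slc15a2, Slc36a3os, Slc22a5, Slc22a21, Slc39a14 and Slc26a10 were added after their values were seen. Classes followed family and gene name, and Slc7a6os, Slc36a3os and Slc4a1ap were moved by name to the non-transporters once the table was at hand. Positions and exon overlaps are from GENCODE vM21 and start site sequences from RefSeq, both GRCm38. The steps were tested on simulated data. The alternatives stand in the closing section.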

Additional observations from a re-analysis of the deposited data

How the results depend on the processing

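The pseudocount was set to 0.1, 0.5 or 5, the filter to none or a mean of 5 TPM, the scaling to median-of-ratios or quantiles, and limma was run with robust variances, without trend or with a block. A threshold of 0.01, voom on recovered reads and each library left out were also tried. The cause of each change below was not tested. The 10 members higher became 6 in limma without trend, 4 at an adjusted p below 0.01 and 5 to 8 without a replicate, and the 4 lower became 1, 1 and 1 to 2, and 7 with voom. Over all genes, 603 higher became 243 at 0.01 and 303 to 437 without a replicate, and 257 lower became 160 without trend, 98 at 0.01 and 136 to 202 without a replicate. Of the genes with other symbols, 2 higher became 1 at a mean of 5 TPM, 1 without trend, 0 at 0.01 and 0 to 3 without a replicate.

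Replicate numbers came from sample titles only, and the deposited column of Egr2fl/fl replicate 3 is named WT4. Same-numbered libraries did not deviate together (correlations of -0.026, 0.065 and -0.006). With a replicate block 301 genes were higher and 130 lower, with 7 and 3 members and 0 higher genes of other symbols. Of the 14 members 8 passed with the block, and Slc15a3, Slc22a23, Slc2a6, Slc46a3, Slc7a7 and Slc7a8 did not. The block added Slc29a1 (adjusted p = 0.0396) and Slc36a3os (adjusted p = 0.0415). Voom called all 14 and added Slc25a25, Slc29a1, Slc36a4, Slc39a14, Slc44a2 and Slc45a4. The 2 scalings shifted the median of all genes by -0.05 and -0.06 log2 units. Slc2a6 was lost at a pseudocount of 0.1 or 5 and without a filter, and Slc45a3 at 5. Called members kept their sign in every setting.

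Signs turned in genes that passed neither way. With median-of-ratios scaling the log2 difference was -0.003 in Slc16a6, -0.0191 in Slc22a21, -0.037 in Slc39a1, -0.0367 in Slc43a2 and -0.0343 in Slc8b1. With quantiles it was -0.082 in Slc22a21, and with voom it was -0.0197 in Slc22a21, -0.0159 in Slc39a1, -0.0167 in Slc43a2 and -0.014 in Slc8b1. Without a replicate it ran from -0.334 to 1.22 in Slc15a2, from -0.0515 to 0.15 in Slc16a6, from -0.134 to 0.224 in Slc22a21, from -0.18 to 0.0686 in Slc26a2, from -0.0089 to 0.171 in Slc37a2, from -0.152 to 0.0787 in Slc38a2, from -0.0058 to 0.0407 in Slc39a1, from -0.0648 to 0.0237 in Slc3a2, from -0.0526 to 0.108 in Slc43a2, from -0.127 to 0.0845 in Slc6a8, from -0.192 to 0.0035 in Slc7a6, from -0.0652 to 0.0283 in Slc7a6os and from -0.0405 to 0.0635 in Slc8b1. Genes with few reads, such as Slc36a3os, are limited by depth.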
